A study of Mus musculus with 12 samples.

Results

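Glycolysis turns glucose into pyruvate, which a cell can release as lactate or pass into mitochondria. The genes described here cover that route from the glucose transporters to the pyruvate dehydrogenase complex, with the kinases that set the pace at its upper and lower ends. They are 32 genes chosen by symbol, of the 24421 entries of the deposited table, and all 32 passed the filter on low values that left 15464 genes for testing. RNA was sequenced from cells sorted by fluorescence from the cerebellum of Aldh1l1-GFP mice, in which the Aldh1l1 promoter drives green fluorescent protein, a reporter used to mark astrocytes. All libraries share this genotype and differ in age, with 3 libraries at each of postnatal day 1 (P1), P7, P14 and P28. Mice were of both sexes and on 1 inbred background, and the labels do not tie a library to an animal, so the p-values measure the spread between libraries, which may in part be technical.

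Astrocytes are known as strongly glycolytic cells that take up glucose through GLUT1, encoded by Slc2a1, and export lactate through monocarboxylate transporters. Several steps of the pathway are served by isoforms from different genes, such as the aldolases A and C and the lactate dehydrogenase subunits A and B. Pyruvate dehydrogenase kinases inactivate the pyruvate dehydrogenase complex, and so hold back the entry of pyruvate into the citric acid cycle.

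Values are normalized counts, reads per gene divided by 1 size factor per library, and the libraries held 6399499 to 14733985 reads on genes. A gene was called where its adjusted p, taken over the 15464 genes, was under 0.05, and log2 fold changes are of the normalized count + 1, which understates changes of low genes. Levels are compared between genes as normalized counts per kb of exon (kb, 1000 bases of the union of annotated exons). That union can be longer than the transcripts on which reads were counted, by an extent that can differ between genes. Levels and ratios per kb between genes are therefore uncertain.

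By group mean, most of the 32 genes were at their lowest at P7, and most at their highest at P28. Such ranks take no account of the spread between libraries, of the scaling or of P1 replicate 2, described below. The mean was lowest at P7 for 21 of the 32 genes, against 23.66% of all genes tested, and highest at P28 for 21, against 31.12% of all genes. No member had its highest mean at P7 or its lowest mean at P14. From P1 to P7, 2 genes fell (Aldoc and Pdk2), where 4.24% of all genes were called lower. In that step limma called 0 members higher, against 3.47% of all genes, with 2 at an unadjusted p under 0.05, 0 by edgeR and 1 by DESeq2. Without P1 replicate 3, 5 members were called lower in that step, without P1 replicate 1 or 2, P7 replicate 1 or 2 or P14 replicate 2 only 1 (Aldoc) was, and 1 was called higher without P7 replicate 3. From P7 to P14, 12 rose, where 10.8% of all genes were called higher, and limma called 0 lower, where 10% of all genes were (0 also at an unadjusted p under 0.05, by edgeR and by DESeq2). From P14 to P28, 5 rose, against 5.68% of all genes, and limma called 0 lower, against 8.76% of all genes, with 1 at an unadjusted p under 0.05, 0 by edgeR and 1 by DESeq2. Leaving out either P1 replicate 2 or P1 replicate 3 gave 1 member called lower in that last step.

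The 12 astrocyte markers summed to 63862 to 83938 normalized counts in the P1 libraries, 32332 to 58309 in those of P7, 160749 to 200221 in those of P14 and 343809 to 395560 in those of P28. The 14 oligodendrocyte lineage markers summed to 8385 to 12957, 25507 to 37947, 330135 to 385080 and 105018 to 144984 at the same ages. Those of granule neuron precursors and the cell cycle, 9 genes, summed to 9142 to 16714, 23418 to 28709, 1163 to 2345 and 701 to 1299, with Atoh1 at 0 in every P14 and P28 library and Cdk1 at 0 at P28. The 10 granule neuron markers summed to between 2972 (P1) and 33219 (P14), the 12 general neuron markers to between 7916 (P1) and 44185 (P14), the 6 Purkinje cell markers to between 1635 and 4247 (both P28), and the 10 microglia and macrophage markers to between 1183 (P1) and 4395 (P14). The 7 choroid plexus markers summed to 338 to 791 at P1 and to between 914 (P14 replicate 3) and 183088 (P28 replicate 2) at the later ages, and the 6 globin genes of the red blood cell list were at 0 throughout. In such bulk RNA, fewer cells of a type and less RNA per cell cannot be told apart, and the part of these shifts in the members' values was not tested.

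At an unadjusted p under 0.05 with a log2 fold change over 0.75 in size, a reading of the study's threshold, for which neither a log base nor an adjustment is stated, the members called were 1 higher and 5 lower in the first step (6.94% and 7.27% of all genes), 13 and 0 in the second (13.1% and 13.1%), 6 and 1 in the third (7.83% and 16.3%) and 17 and 2 over the whole span (15.6% and 23.8%).

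Over the whole span from P1 to P28, 16 members rose and 2 fell (Slc16a3 and Pdk1, the latter lost without any 1 of 10 libraries, which left 1), where 14.6% of all genes were called higher and 20% lower. The median log2 fold change of the 32 genes was -0.43 in the first step, 0.72 in the second, 0.29 in the third and 0.87 over the whole span. Over all genes tested, the same medians were 0.04, -0.09, -0.12 and -0.24. With values scaled to library totals alone, the medians of all genes became 0.10, -0.34, -0.35 and -0.67 and those of the members -0.37, 0.46, 0.06 and 0.44, so the signs of the members' medians held. That scaling also moved the share of called genes that were higher from 51.9% to 32.7% in the second step, from 39.3% to 19.0% in the third and from 42.3% to 20.9% over the whole span, and 10 members were then called higher from P1 to P28.

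The libraries of 21 members at P14 all lay above those at P7, where 21.3% of all genes did, and none lay wholly below, where 24.8% did. From P1 to P7, the P7 libraries of 10 members lay wholly below those of P1, against 18.2% of all genes, and 3 wholly above, against 20.1%. From P14 to P28, the later libraries of 10 lay wholly above and of 2 wholly below (11.7% and 14.5% of all genes), and at P28 against P1, those of 17 lay wholly above and of 1 wholly below (17.9% and 24%).

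**Figure D1:**
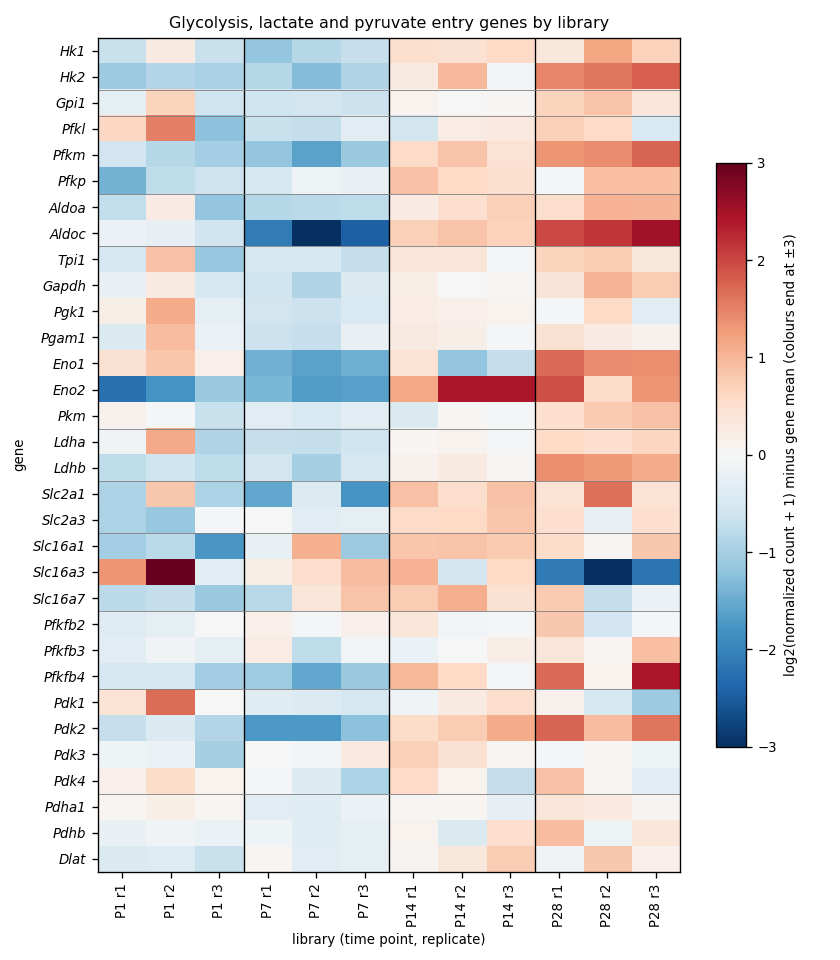
Levels of the 32 genes (rows, grouped by role) in the 12 libraries (columns, by age and replicate), as log2(normalized count + 1) minus the gene's mean over the libraries. P7 columns are mostly blue (21 genes have their lowest mean there), P28 columns mostly red (21 have their highest mean there), and P1 replicate 2 is redder than the other P1 libraries.

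The highest level per length at P28 belonged to Aldoc, at 17207 ± 3310.0 (SD, n = 3) normalized counts per kb, followed by Gapdh at 4229 ± 931 (SD, n = 3) and Ldhb at 2594 ± 256 (SD, n = 3). At P7 the order was another one, with Gapdh first at 1627 ± 249 (SD, n = 3) per kb and Aldoc at 625 ± 247 (SD, n = 3) beside Ldhb at 676 ± 115 (SD, n = 3), a pair whose libraries overlapped. The lowest of the 32 at P28 was Slc16a3, at 0.176 ± 0.153 (SD, n = 3) per kb.

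Glucose enters through Slc2a1 and, in neurons above all, through the high affinity transporter GLUT3 encoded by Slc2a3. Slc2a1 stood at 1233, 4119 and 1206 in the P1 libraries, 803, 1769 and 689 in those of P7, 4284, 3398 and 4286 in those of P14 and 3189, 7348 and 3193 in those of P28. It rose from P7 to P14 (log2 fold change 2.00 ± 0.46 (SE), adjusted p = 0.006), with all P14 libraries above all P7 libraries. At P1, P7 and P28, replicate 2 was the highest of the libraries, and P28 against P1 gave log2 fold change 1.20 ± 0.46, adjusted p = 0.0545. The endothelial and pericyte markers, 10 genes, summed to 5446 in P1 replicate 2 against 1726 and 1935 in the other P1 libraries, and to 12257 in P7 replicate 2 against 3714 and 2815, and brain endothelium is known to express Slc2a1 and Slc16a1. At P14, where Slc2a1 was called higher than at P7, the sum was 7353, 8260 and 7290, above P7 replicates 1 and 3 and below P7 replicate 2, and the part of these markers in the rise was not tested. In P28 replicate 2 that sum was 4909, between 4152 and 5950 in the other P28 libraries. Slc2a3 stood at 127, 113 and 242 at P1 and 351, 212 and 353 at P28 and was called higher between these ages (log2 fold change 0.97 ± 0.34, adjusted p = 0.0375), although the groups overlapped. That call was lost without each of 7 libraries (P1 replicates 1 and 2, all 3 at P7, P28 replicates 1 and 3), with adjusted p of 0.0507 to 0.134. The log2 fold change of Slc2a3 was still 0.97 without a P7 library, as such libraries enter only the shared spread, the filter and the adjustment.

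Hexokinases trap glucose in the cell by phosphorylation. Hk1, the broadly expressed form of brain, stood at 394, 748 and 395 in the P1 libraries, 279, 344 and 388 in those of P7, 875, 856 and 937 in those of P14 and 791, 1422 and 1007 in those of P28. It rose from P7 to P14 (log2 fold change 1.41 ± 0.28, adjusted p = 0.00227) and was higher at P28 than at P1 (log2 fold change 1.09 ± 0.28, adjusted p = 0.00761), the latter call lost with library totals alone (adjusted p = 0.0651). Hk2, the inducible form, stood at 148, 174 and 162 at P1 and 176, 129.6 and 169.8 at P7, and then at 388, 624 and 301 at P14 and 886, 954 and 1102 at P28. It rose in both of the later steps (log2 fold change 1.41 ± 0.29, adjusted p = 0.00293, then log2 fold change 1.22 ± 0.29, adjusted p = 0.0131), and the libraries of each later age lay above those of the age before. The second of these calls was lost without P14 replicate 3 (adjusted p = 0.0578) and with only the 2 ages in the fit (adjusted p = 0.0626). The ratio of Hk2 to Hk1 per kb went from 0.473 at P1 to 1.34 at P28. Without division by length, the mean log2 ratio was -1.59 at P1 and -0.09 at P28. Which of the genes was higher at P28 thus depends on the lengths used.

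Gpi1, the isomerase that follows, stood at 2482, 4851 and 2026 at P1 and 4821, 5506 and 3900.1 at P28. It was called higher at P28 (log2 fold change 0.70 ± 0.25, adjusted p = 0.0413), but P1 replicate 2 lay among the P28 libraries, and the call was lost without each of 9 libraries (all but P1 replicate 2, P7 replicate 2 and P28 replicate 3), with adjusted p of 0.0543 to 0.197. Without P1 replicate 2 its log2 fold change was 1.07 (adjusted p = 0.00044).

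Phosphofructokinase, the committed step of glycolysis, has liver (Pfkl), muscle (Pfkm) and platelet (Pfkp) subunits. Pfkm stood at 1011, 829.5 and 749 in the P1 libraries, 676, 493 and 695 in those of P7, 2239, 2731 and 2035 in those of P14 and 3804, 4002 and 5048 in those of P28. It rose in the second step (log2 fold change 1.91 ± 0.19, adjusted p = 1.01e-05) and in the third (log2 fold change 0.88 ± 0.19, adjusted p = 0.00965), with groups that did not overlap in either. Pfkp stood at 257, 403 and 444 in the P1 libraries, 479, 623 and 591 in those of P7, 1266, 1037 and 959 in those of P14 and 671, 1282 and 1287 in those of P28. It rose from P7 to P14 (log2 fold change 0.94 ± 0.28, adjusted p = 0.0263) and was higher at P28 than at P1 (log2 fold change 1.53 ± 0.28, adjusted p = 0.000791). Its call from P7 to P14 was lost without P7 replicate 1 or 3 or P14 replicate 1 or 2, with adjusted p of 0.0638 to 0.11, and with library totals alone (adjusted p = 0.088). Pfkl showed no call, with 505, 937 and 139 at P1 and 535, 489 and 238 at P28 (log2 fold change -0.03 ± 0.54, adjusted p = 0.974), and its P1 libraries spanned the range of all other ages. At P28, Pfkm stood at 1283 ± 200.2 (SD, n = 3) per kb, above Pfkp at 80.6 ± 26.5 (SD, n = 3) and Pfkl at 63 ± 24 (SD, n = 3). Before division by exon length, the P28 means were 4285 for Pfkm, 1080 for Pfkp and 421 for Pfkl. The size of the gaps per kb thus depends on the lengths used.

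The bifunctional enzymes encoded by Pfkfb2, Pfkfb3 and Pfkfb4 make and remove fructose 2,6-bisphosphate, the strongest activator of phosphofructokinase. Pfkfb4 stood at 58.9, 41.9 and 57.4 at P7, 252, 191 and 123 at P14 and 408, 136 and 682 at P28. It rose from P7 to P14 (log2 fold change 1.78 ± 0.54, adjusted p = 0.0289) and was higher at P28 than at P1 (log2 fold change 2.10 ± 0.54, adjusted p = 0.00766), where the libraries were spread widely. The first call was lost without any 1 of the P7 libraries or P14 replicate 1 or 2, with adjusted p of 0.0646 to 0.109. Pfkfb3, a form known to be kept low in neurons, stood at 917, 1067 and 938 at P1 and 1472, 1182 and 2133 at P28 (log2 fold change 0.67 ± 0.26, adjusted p = 0.0553), and Pfkfb2 at 432, 474 and 561 at P1 and 992, 381 and 552 at P28 (log2 fold change 0.29 ± 0.29, adjusted p = 0.474). Neither was called in any comparison.

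Aldolase C, a classic marker of cerebellar astrocytes and of zebrin-positive Purkinje cell stripes, had the largest log2 fold change of the 32 in the first step on the count + 1 scale, which understates that of the low gene Eno1 (from a mean of 8.95 to 1.48 normalized counts). Aldoc stood at 10561, 10070.5 and 7823 in the P1 libraries, 2762, 1171 and 2184 in those of P7, 19622, 21436 and 19172 in those of P14 and 47356, 52878 and 68203 in those of P28, and no 2 ages overlapped. It fell from P1 to P7 (log2 fold change -2.29 ± 0.25, adjusted p = 9.94e-05), rose from P7 to P14 (log2 fold change 3.38 ± 0.25, adjusted p = 8.26e-07) and rose again to P28 (log2 fold change 1.47 ± 0.25, adjusted p = 0.0023). It was the only member called in all of the 3 consecutive steps, and these calls held under every alternative tried. The means of Aldoc and of the summed astrocyte markers had the same order over the ages. Of the 12 markers 7 fell and 1 (Gfap) rose from P1 to P7, where 4.24% and 3.47% of all genes did, and 10 rose from P7 to P14, where 10.8% did. Between P1 and P28, 10 of the markers rose and 1 fell, where 14.6% and 20% of all genes did. The marker that fell over the whole span was Aldh1l1, the gene of the sort reporter, at 3841 to 6441 in the P1 libraries, 936 to 1985 in those of P7, 1824 to 1978 in those of P14 and 2451 to 3338 in those of P28. In P14 replicate 3, where the choroid plexus markers were at 914 against 109743 and 63755 in the other P14 libraries, Aldoc was at 19172 against 19622 and 21436. The part of any of these cell types in the Aldoc values was not tested.
Aldoa, the form of muscle and many other tissues, stood at 1173, 2324 and 876 in the P1 libraries, 1079, 1105 and 1139 in those of P7, 2309.8, 2749 and 3214 in those of P14 and 2799, 4009 and 3956 in those of P28, and rose from P7 to P14 (log2 fold change 1.30 ± 0.28, adjusted p = 0.00392).

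**Figure D2:**
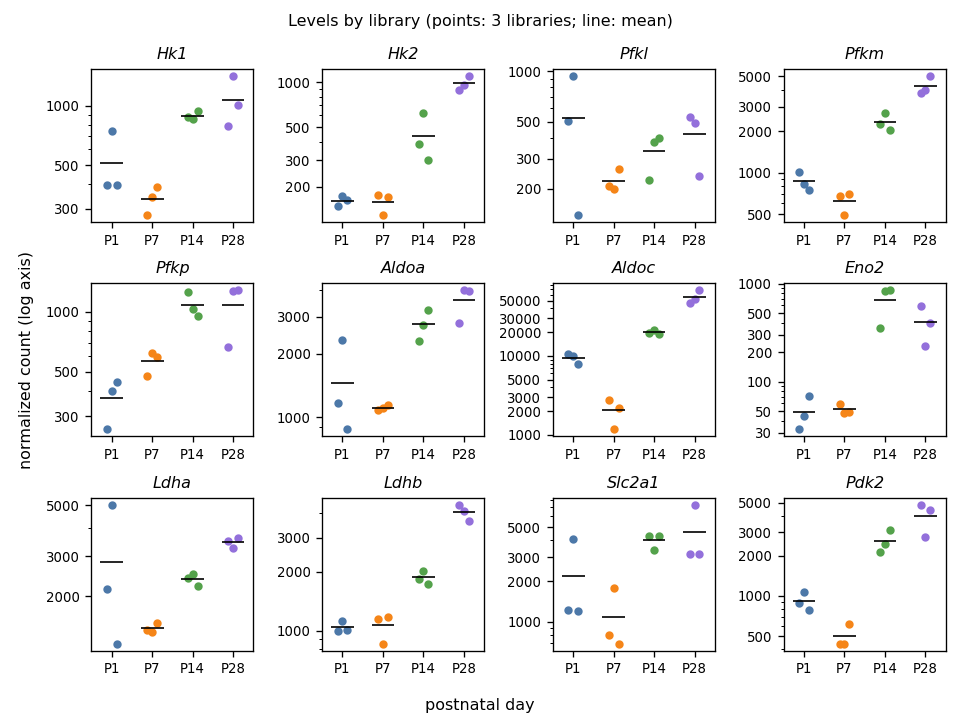
Normalized counts (log axis, a scale of its own in each panel) of 12 of the genes in the 3 libraries of each age, with the mean as a line. Aldoc drops to between 1171 and 2762 at P7 and reaches 47356 to 68203 at P28, while Ldha, Pfkl and Slc2a1 show 1 P1 library (replicate 2) well above the others.

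The lower part of glycolysis oxidizes the 3-carbon sugars and makes pyruvate. Gapdh, the dehydrogenase often used as a reference gene, stood at 8852, 12510.5 and 7224 in the P1 libraries, 6925, 5608 and 7639.8 in those of P7, 11864, 10500.4 and 10666 in those of P14 and 13514, 21199.7 and 17728 in those of P28. It rose from P7 to P14 (log2 fold change 0.72 ± 0.21, adjusted p = 0.0229) and was higher at P28 than at P1 (log2 fold change 0.89 ± 0.21, adjusted p = 0.00442). The first of these calls was lost without any 1 of P7 replicates 1 and 2 and the 3 P14 libraries (adjusted p of 0.0535 to 0.0896), and with library totals alone both were lost (adjusted p = 0.0975 and 0.0711). Pkm, the pyruvate kinase of brain, stood at 1647, 2284 and 2135 at P14 and 3157, 3814 and 4100.2 at P28 and rose between them (log2 fold change 0.87 ± 0.20, adjusted p = 0.0124), a call lost without P14 replicate 1 (adjusted p = 0.0565). Splice forms M1 and M2 of Pkm cannot be told apart in values per gene.

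Tpi1, Pgk1 and Pgam1, the isomerase, kinase and mutase between aldolase and enolase, were called in no comparison. From P7 to P14 their libraries nonetheless did not overlap, with log2 fold changes of 0.79, 0.72 and 0.65 (adjusted p = 0.165, 0.111 and 0.128). Pgk1 stood at 1283, 2471 and 934 at P1 and 1081, 1707 and 891 at P28 (log2 fold change -0.28 ± 0.30, adjusted p = 0.494), with groups that overlapped. Reads of Gapdh, Ldha, Pgk1, Tpi1, Pgam1 and Aldoa can be shared with processed pseudogenes, and how such reads were counted is not stated, so their levels are uncertain.

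Eno2, the enolase known from neurons, stood at 32.6, 44.3 and 71.9 in the P1 libraries, 59.7, 48.4 and 49.6 in those of P7, 354, 840.0 and 860.1 in those of P14 and 598, 230.0 and 394 in those of P28. It rose from P7 to P14 (log2 fold change 3.57 ± 0.47, adjusted p = 8.48e-05) and P28 libraries lay above those of P1 (log2 fold change 2.98 ± 0.47, adjusted p = 0.000236). The 12 general neuron markers summed to 19685 to 25556 in the P7 libraries, 25695 to 44185 in those of P14 and 18757 to 24602 in those of P28. Of these markers, 3 rose and 6 fell from P7 to P14, where 10.8% and 10% of all genes did. Their values moved both ways, with Snap25 at 2033 to 2771 in the P7 libraries and 15942 to 30596 in those of P14. Dcx was at 5986 to 8423 and 441 to 636 in the same libraries. Among the 10 granule neuron markers, limma called 5 higher and 0 lower in that step (1 lower at an unadjusted p under 0.05, 0 by edgeR and by DESeq2). The part of neurons in the Eno2 values was not tested. Eno1, the enolase of most tissues, had only 1.31 to 21.9 normalized counts, while the near-identical copy Eno1b held 711 ± 231, 370 ± 0.766, 1016 ± 342 and 1924 ± 246 normalized counts (SD, n = 3) at the 4 ages in turn. Reads of the copies can be shared, so Eno1 and Eno1b were also summed, a choice made after seeing the data. The sum fell from P1 to P7 (log2 fold change -0.90 ± 0.26 (SE), adjusted p = 0.0482), a call that Eno1b alone did not reach (-0.89 ± 0.26, adjusted p = 0.0526), and then rose to P14 (1.41 ± 0.26, adjusted p = 0.0014) and to P28 (0.97 ± 0.26, adjusted p = 0.0236).

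Lactate dehydrogenase is a tetramer of A and B subunits, of which A is known for making lactate and B for using it. Ldhb stood at 998, 1118 and 1004 in the P1 libraries, 1152, 855 and 1179 in those of P7, 1849, 2033 and 1738 in those of P14 and 4441, 4130.5 and 3644 in those of P28. It rose in the second step (log2 fold change 0.83 ± 0.16, adjusted p = 0.00231) and in the third (log2 fold change 1.12 ± 0.16, adjusted p = 0.000943), with groups that did not overlap, and both calls held under every alternative tried. Ldha stood at 2158, 5046 and 1237 in the P1 libraries, 1419, 1394 and 1529 in those of P7, 2404, 2493 and 2215 in those of P14 and 3507, 3269 and 3594 in those of P28, and was called in no comparison (log2 fold change 0.54 ± 0.34, adjusted p = 0.233 for P28 against P1). The P1 libraries of Ldha spread over more than the range of all other ages. Per kb, Ldhb stood to Ldha as 0.921 at P1, 1.53 at P7, and 1.66, then 2.48, at the later ages. Without division by length, the mean log2 ratio was -0.46 at P7, -0.34 at P14 and 0.23 at P28.

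Of the monocarboxylate transporters that carry lactate and pyruvate, MCT1 (Slc16a1) and MCT4 (Slc16a3) are known from glia and endothelium and MCT2 (Slc16a7) from neurons. Slc16a1 stood at 241, 276 and 144 in the P1 libraries, 414, 1017 and 227 in those of P7, 871, 881 and 833 in those of P14 and 710.2, 501 and 847 in those of P28, and was higher at P28 than at P1 (log2 fold change 1.65 ± 0.42, adjusted p = 0.00794). Its highest value was in P7 replicate 2, the library with the highest sum of endothelial and pericyte markers. Its highest mean was at P14 (862, against 220 at P1, 553 at P7 and 686 at P28). The oligodendrocyte lineage markers were also highest at P14, at 330135 to 385080, against 25507 to 37947 at P7 and 105018 to 144984 at P28. The largest sums of the granule neuron, general neuron and microglia markers were at P14 too. The part of any of these cell types in the Slc16a1 values was not tested.

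Slc16a3 stood at 25.8, 163 and 7.57 in the P1 libraries, 11.1, 14.4 and 19.4 in those of P7, 21.2, 6.35 and 15.2 in those of P14 and 1.46, 0 and 1.35 in those of P28. It was lower at P28 than at P1 (log2 fold change -4.22 ± 0.99, adjusted p = 0.00468), with groups that did not overlap, and the log2 fold change without P1 replicate 2 was -3.08 (adjusted p = 0.0253). The 3 P1 libraries held 280 reads and the 3 P28 libraries 2, a ratio per normalized unit of 73.2 with an exact 95% interval of 20.1 to 607, which covers counting error only. Of the P1 reads 228 came from replicate 2, and without that library, a choice made after seeing the data, 52 reads remained and the ratio was 20.05 (5.28 to 170). Slc16a7 stood at 27.7, 29.3 and 22 at P1 and 84.8, 29.5 and 43.3 at P28 and was called in no comparison.

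Of the 4 pyruvate dehydrogenase kinases, Pdk2 was called higher over the span, Pdk1 lower by a call that rests on P1 replicate 2 among others, and Pdk3 and Pdk4 were not called. Pdk2, a widely expressed form, stood at 891, 1071 and 786 in the P1 libraries, 438, 438 and 617 in those of P7, 2122, 2454 and 3131 in those of P14 and 4847, 2767 and 4395 in those of P28. It fell from P1 to P7 (log2 fold change -0.89 ± 0.23, adjusted p = 0.0324) and rose from P7 to P14 (log2 fold change 2.37 ± 0.23, adjusted p = 8.32e-06), and P28 libraries lay above those of P1 (log2 fold change 2.10 ± 0.23, adjusted p = 1.19e-05). The fall was lost without P1 replicate 1 or 2, P7 replicate 1 or 2 or P14 replicate 2 (adjusted p of 0.05 to 0.138, the lowest just above the threshold). Pdk1, a form known as a target of hypoxia inducible factor, stood at 309, 743 and 229 in the P1 libraries, 182, 175 and 160.5 in those of P7, 217, 281 and 337 in those of P14 and 254, 167 and 108 in those of P28. It was lower at P28 than at P1 (log2 fold change -1.17 ± 0.43, adjusted p = 0.0461), although P28 replicate 1 lay above P1 replicate 3. Leaving out P1 replicate 2 brought its log2 fold change to -0.67 (adjusted p = 0.23), and the call was lost without each of 10 libraries, all but P1 replicate 3 and P28 replicate 1, with the lowest adjusted p at 0.0545.

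Pdk3 and Pdk4 were called in no comparison, with 341, 444 and 329 at P1 and 566, 316 and 241 at P28 for Pdk4, a form known to follow fatty acid use. Of the pyruvate dehydrogenase complex itself, the subunits Pdha1 and Pdhb were called in no comparison (for P28 against P1, log2 fold change 0.15 ± 0.18, adjusted p = 0.524 and log2 fold change 0.55 ± 0.28, adjusted p = 0.145). Dlat, the acetyltransferase at the core of the complex, stood at 276, 284 and 232 at P1 and 345, 649.9 and 415 at P28 and was called higher (log2 fold change 0.78 ± 0.28, adjusted p = 0.0444). That call was lost without each of 8 libraries (all at P1 and P7, P14 replicate 2 and P28 replicate 2), with adjusted p of 0.0557 to 0.149, and with a block for the replicate number, where its adjusted p was 0.0573. Side by side, the log2 fold changes from P1 to P28 were 2.10 for Pdk2, 0.38 for Pdk3, -0.07 for Pdk4 and -1.17 for Pdk1 (-0.67 without P1 replicate 2), and 0.15 to 0.78 for the 3 subunits of the complex they act on.

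**Figure D3:**
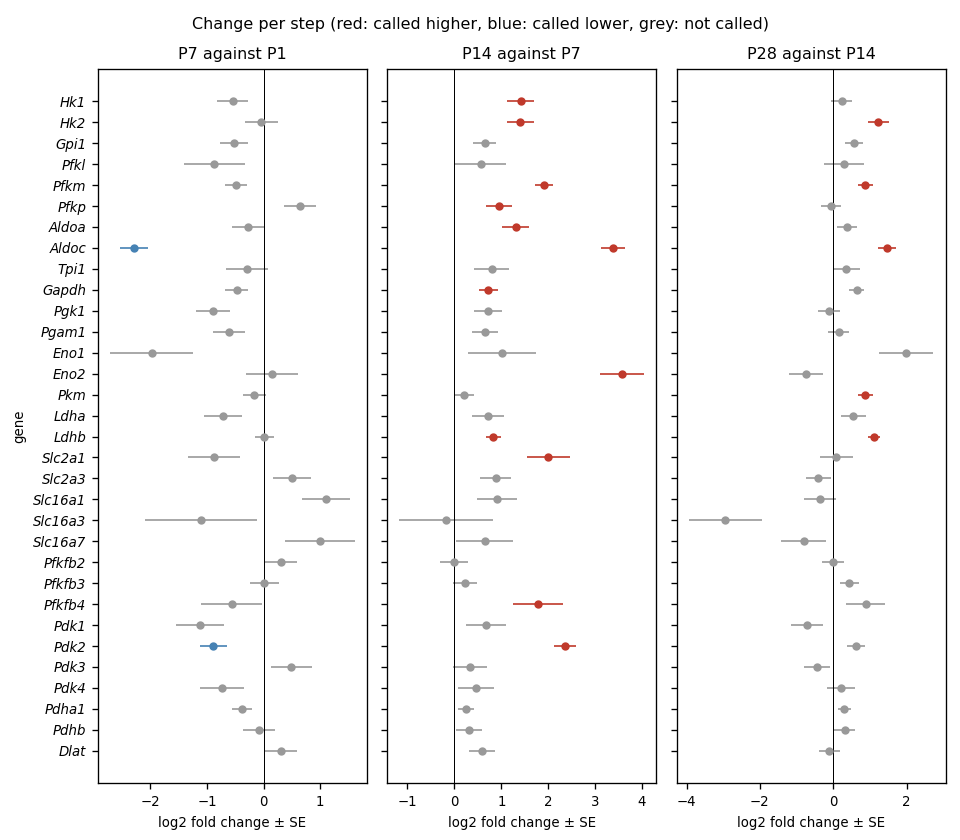
Log2 fold change (x axis) with its standard error for each of the 32 genes in the 3 consecutive steps, with called genes in red (higher) or blue (lower) and others in grey. In the first step Aldoc and Pdk2 are the 2 called genes, in the second 12 genes are called higher, and in the third 5.

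Isoform balance was followed as the log2 ratio of 2 genes within a library, for 11 pairs. Each ratio was taken of the normalized counts + 1, which draws ratios of low genes, Eno1 above all, toward equality. Over the 4 ages together, an exact permutation test of the one-way F statistic was run over the 369600 arrangements of the 12 libraries, in which the smallest possible p is 6.49e-05. Of the 11 ratios, 8 had p under 0.05, with Benjamini-Hochberg adjusted values of at most 0.0428, and 3 lay under the Bonferroni limit of 0.00455. Single steps with 3 against 3 libraries cannot reach p of 0.05 in such a test and are described without one. Every permutation p of a ratio is thus of the 4 ages together, also where it stands beside a change from P1 to P28.

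The ratio of Aldoc to Aldoa had means of 2.81, 0.79, 2.87 and 3.97 on the log2 scale at P1, P7, P14 and P28 (exact permutation p = 0.000649). Each step's groups lay apart, and per kb the mean ratio was 6.27 at P1, then 1.55, 6.54 and 13.98. That of Pdk2 to Pdk1 had means of 1.28, 1.51, 3.21 and 4.54 (exact permutation p = 0.000519), with P14 libraries above P7 and P28 libraries above P14. That of Eno2 to Eno1, at 2.30, 4.43, 6.99 and 4.25 (exact permutation p = 0.000519), rests on few Eno1 reads, and its change from P1 to P28 was 1.90, 1.95 and 2.14 with 0.1, 1 and 10 added to the counts. With Eno1b added to Eno1 it was -3.85, -2.80, -0.64 and -2.35 (exact permutation p = 0.00221), highest at P14 on either count.

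Within phosphofructokinase, both ratios to the muscle subunit Pfkm had their lowest mean at P28. The log2 ratio of Pfkl to Pfkm had means of -1.08, -1.48, -2.83 and -3.42 (exact permutation p = 0.0198, and 0.0569 without P28 replicate 3, where P28 minus P1 was -1.85 in place of -2.34). That of Pfkp to Pfkm had means of -1.25, -0.13, -1.10 and -2.04 (exact permutation p = 0.00545), with P7 libraries above those of P1 and P28 libraries overlapping those of P1. The log2 ratio of Ldhb to Ldha had means of -1.19, -0.46, -0.34 and 0.23 (exact permutation p = 0.021), and its P28 libraries lay above all others in these 4 groups. Without P1 replicate 2, whose log2 ratio was -2.17, the change from P1 to P28 was 0.94 in place of 1.43 (over the 4 ages, exact permutation p = 0.014).

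The log2 ratio of Hk2 to Hk1 had means of -1.59, -1.08, -1.09 and -0.09 (exact permutation p = 0.0311), and P28 libraries lay above those of P1. This p rose to 0.0683 without P1 replicate 2 (P28 minus P1 of 1.25), to 0.0954 without P28 replicate 1 (1.37) and to 0.0925 without P28 replicate 3 (1.39). The log2 ratio of Pdk4 to Pdk2 had means of -1.30, -1.16, -3.06 and -3.47 (exact permutation p = 0.00747). The ratios of Slc2a3 to Slc2a1, Slc16a7 to Slc16a1 and Pfkfb2 to Pfkfb3 gave exact permutation p of 0.298, 0.694 and 0.422. In the last of these, the value was 0.0453 without P28 replicate 1, with P28 minus P1 at -0.79 in place of -0.38.

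**Figure D4:**
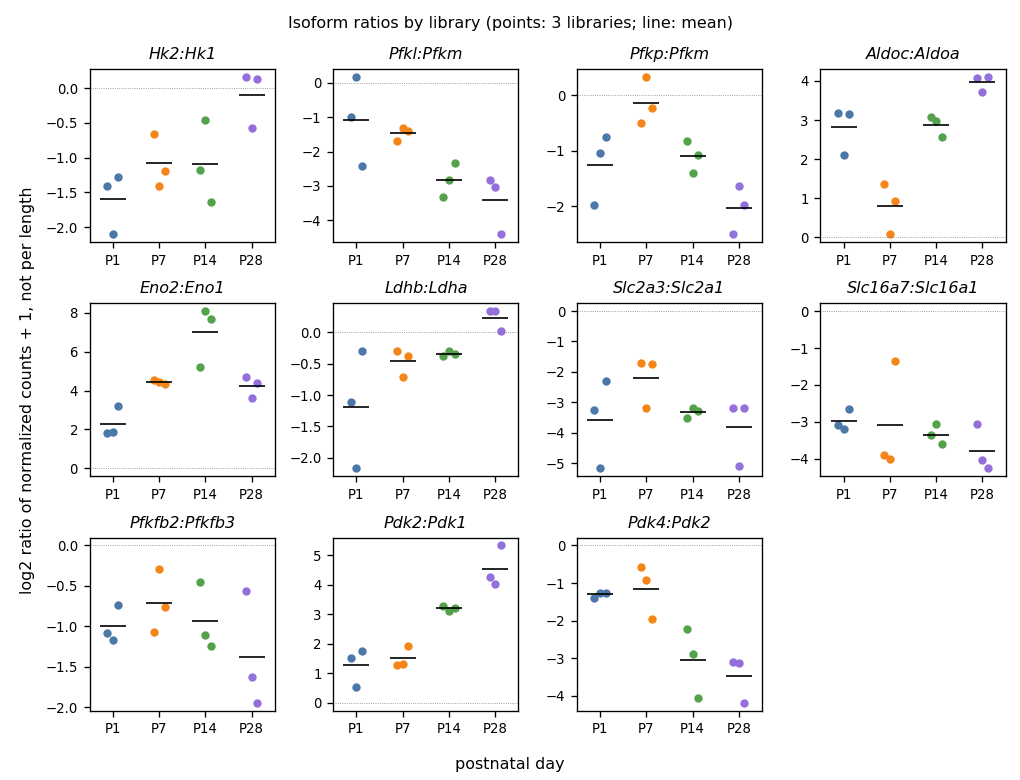
Log2 ratio of normalized counts + 1 for the 11 isoform pairs (y axis, a scale of its own in each panel) in the 3 libraries of each age, with the mean as a line and equality as a dotted line. Aldoc to Aldoa dips at P7 to a mean of 0.79 and ends at 3.97, Pdk2 to Pdk1 climbs from 1.28 to 4.54, and Pfkl to Pfkm falls from -1.08 to -3.42.

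The 3 libraries at P1 differed among themselves in this pathway. P1 replicate 2 was the highest of the P1 libraries for 23 of the 32 genes (71.9%), against 37.2% of all genes tested, and exceeded the mean of the other P1 libraries by more than 2 times for 10 members (31.2%), against 9.73% of all genes. The largest of these excesses were those of Slc16a3 (9.75 times), Slc2a1 (3.38), Tpi1 (3.20), Ldha (2.97), Pfkl (2.91) and Pdk1 (2.76), while Aldoc (1.10), Ldhb (1.12), Hk2 (1.12) and Pfkm (0.943) differed little. Of the 17 genes tested from a list of the hypoxia response and its regulators, 14 were also highest in P1 replicate 2 (82.4%), and 8 exceeded the other P1 libraries by more than 2 times (47.1%). Car9, a carbonic anhydrase known to respond to low oxygen, was at 101 in P1 replicate 2 against 9.84 and 7.57, and Bnip3 at 608 against 108 and 129, both named after their values were seen, whereas Hif1a itself was at 2222 against 1930.0 and 2373. The same library held 9142 normalized counts of the granule neuron precursor and cell cycle markers, against 15806 and 16714, and 5446 of the endothelial and pericyte markers, as above. The part of these differences was not tested. Without P1 replicate 2, 17 members were called higher from P7 to P14 and 18 from P1 to P28, in place of 12 and 16, and 1 was called lower from P1 to P28 in place of 2. Of all genes, 10.7%, 13.3% and 16% were then called in these comparisons and directions, in place of 10.8%, 14.6% and 20%. The log2 fold changes from P7 to P14 do not depend on P1 replicate 2, which enters there only through the shared spread, the filter and the adjustment.

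**Figure D5:**
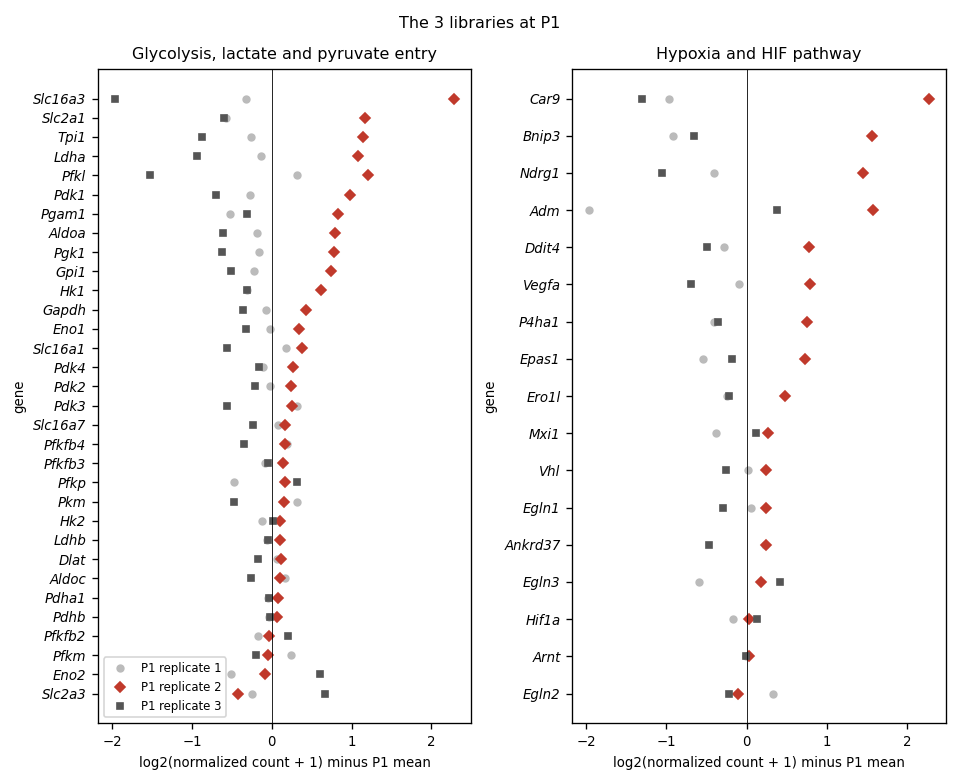
Log2(normalized count + 1) minus the mean of the P1 libraries (x axis) for the 32 genes (left) and 17 hypoxia pathway genes (right), ordered by the excess of P1 replicate 2 over the others. The red diamonds of P1 replicate 2 lie to the right for Slc16a3, Slc2a1, Tpi1, Ldha and Car9, and near 0 for Aldoc, Ldhb and Hif1a.

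As hypoxia inducible factor is known to bind the letters ACGTG and GCGTG, the promoters of the members were searched for them on both strands. The windows run over the 250 bases before and the 50 after each start in RefSeq (GRCm38.p6), with 46 windows for 30 of the 32 genes. ACGTG stood in 22 member windows (47.8%), against 19.6% of the 32851 windows of all genes, and GCGTG in 26 (56.5%), against 32.4%. CACGTG, which holds ACGTG on both strands, stood in 6 (13%), against 7.15%. The median G and C content was 61.2% in member windows and 52.7% in all windows. A match is a description of the letters and not a bound site.

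The promoter stretches of 4 members are shown because their calls differed. Hk2 and Aldoc rose in both steps after P7, and Pgam1 was called in no comparison. Pdk1 was called lower at P28 than at P1, a call lost without any 1 of 10 libraries, P1 replicate 2 among them. In P1 replicate 2, Pgam1 was at 2.36 times and Pdk1 at 2.76 times the mean of the other P1 libraries. They were chosen after their values were seen. Each runs 5′ to 3′ on the gene's strand up to the base before the first annotated start of the gene, with the letters ACGTG or GCGTG, on either strand, in capitals.
Hk2 promoter, GRCm38 chr6:82774455-82774704, minus strand: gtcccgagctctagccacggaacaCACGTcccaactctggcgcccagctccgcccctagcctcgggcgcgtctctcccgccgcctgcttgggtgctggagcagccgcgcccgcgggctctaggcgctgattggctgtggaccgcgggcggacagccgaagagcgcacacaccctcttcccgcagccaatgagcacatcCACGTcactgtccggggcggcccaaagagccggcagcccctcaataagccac
Pdk1 promoter, GRCm38 chr2:71872974-71873223, plus strand: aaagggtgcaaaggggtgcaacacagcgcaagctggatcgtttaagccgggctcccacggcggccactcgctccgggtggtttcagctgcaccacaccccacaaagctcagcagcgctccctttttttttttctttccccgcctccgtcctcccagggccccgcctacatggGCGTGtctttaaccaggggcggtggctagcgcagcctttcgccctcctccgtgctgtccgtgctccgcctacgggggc
Pgam1 promoter, GRCm38 chr19:41911621-41911870, plus strand: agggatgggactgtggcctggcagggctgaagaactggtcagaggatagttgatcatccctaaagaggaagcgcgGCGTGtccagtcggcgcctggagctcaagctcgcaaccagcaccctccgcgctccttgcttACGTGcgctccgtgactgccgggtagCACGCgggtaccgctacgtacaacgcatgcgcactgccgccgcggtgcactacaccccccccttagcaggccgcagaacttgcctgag
Aldoc promoter, GRCm38 chr11:78322823-78322967, plus strand: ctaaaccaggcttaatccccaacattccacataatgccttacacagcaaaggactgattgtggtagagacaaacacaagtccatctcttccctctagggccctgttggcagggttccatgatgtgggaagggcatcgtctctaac
The stretch of Hk2 holds ACGTG at 2 places, that of Pdk1 holds GCGTG at 1, and that of Pgam1 holds ACGTG at 1 and GCGTG at 2. That of Aldoc, which is shorter at 145 bases because an annotated start lies further upstream, holds neither letter run. The whole windows of Aldoc, which take in bases not printed here, hold ACGTG at 1 place and GCGTG at 2 for the upstream start, and GCGTG at 1 for the other.

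Other genes of the same metabolism were taken from lists named by pathway. Of 18 genes of the tricarboxylic acid cycle, which takes over the carbon of pyruvate, 7 rose in the second step (38.9%, against 10.8% of all genes) and 4 in the third (22.2%, against 5.68%), and 11 were higher at P28 than at P1 (61.1%, against 14.6%). In the first step limma called 0 of them in either direction (at an unadjusted p under 0.05, 0 higher and 3 lower, by edgeR 0, by DESeq2 1 lower). Of all genes, 3.47% were called higher and 4.24% lower in that step. At P28 against P1, limma called 0 of the 18 lower, where 20% of all genes were (1 at an unadjusted p under 0.05, 0 by edgeR and by DESeq2). Citrate synthase (Cs) rose from P14 to P28 (log2 fold change 0.74 ± 0.15 (SE), adjusted p = 0.0061). Of 19 tested enzymes of glycolysis outside the 32, P28 was higher than P1 for 4 (21.1%) and lower for 5 (26.3%), where 14.6% and 20% of all genes were. Gpd1, the glycerol-3-phosphate dehydrogenase that draws on the same 3-carbon pool, rose in each step (log2 fold changes 0.90, 4.71 and 1.55 ± 0.25, adjusted p = 0.0419, 8.37e-08 and 0.00178), from a mean of 118 normalized counts at P1 to 16646 at P28. Its partner Gpd2 rose from P7 to P14 (1.59 ± 0.19, adjusted p = 4.3e-05).

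Of 11 other genes of pyruvate entry, 3 were higher at P28 than at P1 (27.3%, against the same 14.6%). Of these 11, limma called 0 lower, against 20% of all genes (0 also at an unadjusted p under 0.05, by edgeR and by DESeq2). Among the higher ones was Dld, the dehydrogenase that the complex shares with other complexes (0.69 ± 0.22, adjusted p = 0.0243). Pcx, the pyruvate carboxylase of astrocytes, fell from P1 to P7 (-1.31 ± 0.31, adjusted p = 0.0181). Of 13 tested genes of glucose and monocarboxylate transport, P28 was higher than P1 for 4 (30.8%) and lower for 3 (23.1%). Of all genes, 14.6% were called higher and 20% lower in that comparison. Bsg, the chaperone of MCT1 and MCT4, rose from P7 to P14 (0.91 ± 0.29, adjusted p = 0.0399), and Slc2a13, an inositol transporter, was lower at P28 than at P1 (-1.18 ± 0.36, adjusted p = 0.022). Of 8 tested genes of the pentose phosphate pathway, the branch that makes NADPH, P28 was higher than P1 for 1 and lower for 1. These are 12.5% each, against 14.6% and 20% of all genes. Neither Tkt nor G6pdx was called in any comparison. Of the 17 hypoxia pathway genes, P28 was higher than P1 for 4 (23.5%, against 14.6% of all genes) and lower for 2 (11.8%, against 20%). Among the higher ones were Epas1 (2.48 ± 0.37, adjusted p = 0.000152) and Hif1a (0.49 ± 0.15, adjusted p = 0.019).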

How the data were processed

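RNA from sorted GFP-positive cells was sequenced in 12 libraries, 3 at each of 4 ages. The authors mapped reads to mm10 with STAR (version 2.5.0a in the submitters' processing notes), counted them per gene on UCSC transcripts and normalized them with DESeq2. Strand use and the treatment of shared reads are not stated. The deposited signal is a normalized count per gene, the reads divided by 1 size factor per library, and dividing by each library's step gave back whole reads for 100% of values (within 0.01 reads). Ages were compared with limma (version 3.58.1, under R 4.3.3), fitted once to the log2 of value + 1 in all 12 libraries with the variance following expression. A gene was tested if 3 or more libraries reached a value of 10, which left 15464. P-values were adjusted by Benjamini-Hochberg over all genes tested, and SE is the standard error of the fit. edgeR (version 4.0.16, TMM scaling) and DESeq2 (version 1.42.0) on the recovered reads served as alternatives, and edgeR called 489, 1717 and 855 of 15575 genes higher and 604, 1338 and 1127 lower in the 3 consecutive steps. An unadjusted p under 0.05 with a log2 fold change over 0.75 in size was another alternative, a reading of the study's threshold, which states neither the log base nor an adjustment. All 32 members are named, and from other lists the 2 most abundant genes and any called in every step, except that 1 gene is not reported here and that Car9 and Bnip3 were named after their values were seen. Isoform ratios are of values + 1. Members and lists were chosen with earlier results of these data known. Exon lengths come from GENCODE M21 (GRCm38, the same build as mm10). Within an age, libraries correlated at 0.849 to 0.965 (log2, across genes), and read counts differed by more than sampling noise in every pair, with a chi-square per gene of 9.92 to 76.3. The scripts were tested on simulated data. Python (version 3.11.15) was used for the permutation tests. Protein sequences were not used here.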

Additional observations from a re-analysis of the deposited data

How the results depend on the processing

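Of 37 calls of a member in a comparison, 24 held under every alternative in which the gene was tested, and 27 with every library left out. Lost under at least 1 alternative were 13, and 0 changed sign. The filter of at least 10 reads in every library removed Slc16a3, so its call, counted among the 24, was not tested there. Members called higher from P1 to P7 were 1 with DESeq2 and 1 with the unadjusted threshold in place of 0, and those called lower 4 and 5 in place of 2. Members called lower from P14 to P28 were 1 with DESeq2, with a pseudocount of 0.1 and with the unadjusted threshold, in place of 0. Members called higher from P1 to P28 were 10 with library totals alone in place of 16. Those called lower were 1 with TMM scaling, without a filter, with at least 10 reads in every library or with only the ages compared in the fit, in place of 2. With library totals alone, Pfkp and Gapdh lost their calls from P7 to P14 and Hk1, Gpi1, Gapdh, Pkm, Slc2a3 and Dlat theirs from P1 to P28. Gpi1 also lost its call in that span with edgeR (adjusted p = 0.0647) and DESeq2 (0.09), and Pdk1 with TMM scaling (0.0507). With only the ages compared in the fit, Hk2 (P28 against P14) and Gpi1, Slc2a3, Pdk1 and Dlat (P28 against P1) lost theirs. The cause of these changes was not tested.

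With each library left out in turn, members called higher and lower ranged over 0 to 1 and 1 to 5 (P7 against P1), 9 to 17 and 0 to 0 (P14 against P7), 4 to 7 and 0 to 1 (P28 against P14), and 13 to 18 and 1 to 2 (P28 against P1). Leaving out a library of an age not compared left the log2 fold changes as they were. It altered only the shared spread, the genes tested and the adjustment. The change in the log2 ratio from P1 to P28 ranged over 1.25 to 1.74 for Hk2 to Hk1, -3.01 to -1.71 for Pfkl to Pfkm and -0.79 to -0.10 for Pfkfb2 to Pfkfb3. For Slc2a3 to Slc2a1 it ranged over -1.03 to 0.41. It changed sign from -0.23 to 0.40 without P1 replicate 3 and to 0.41 without P28 replicate 2 (over the 4 ages, exact permutation p = 0.172 and 0.403).

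The labels do not say whether libraries with the same replicate number share anything else, such as a litter or a sort. Of 18 same-numbered pairs, 1 had a correlation of deviations over 0.1 (range -0.03 to 0.14). That pair was P1 replicate 2 with P7 replicate 2. Such a correlation cannot exclude a shared origin. The fit with the replicate number as a block kept 36 of the 37 calls and lost that of Dlat. Permuting within replicate numbers gave exact p of 0.092 for Hk2 to Hk1 (change of 1.50) and 0.0556 for Pfkl to Pfkm (change of -2.34).

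Genes near the detection limit (Eno1, and Slc16a3 at P28) carry counting error of their own, as to a lesser extent does Slc16a7, with 25 to 114 reads per library. The 3 libraries per age limit every comparison.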
